A study of Homo sapiens with 12 samples.

Results

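HNF4A, HNF4G, NR5A2, GATA6, FOXA1, FOXA2, FOXA3 and ONECUT2 are transcription factors of the endoderm, the embryonic layer that forms the gut, liver and pancreas. They were taken by gene symbol from a table of raw RNA-seq counts for 28395 genes in HCT116 colorectal cancer cells, which held a row for each of the 8. All 8 passed the filter on low counts and were among the 15853 genes tested, although FOXA2 passed it only through the lines in which it was detected. HNF4A and HNF4G are nuclear receptors that bind DNA as dimers and, in the intestine, act at genes of the brush border and of lipid transport. NR5A2 is a further nuclear receptor, which binds DNA as a monomer and is known for bile acid and cholesterol genes and for crypt renewal. GATA6 is a zinc finger factor required for endoderm, FOXA proteins are pioneer factors that can bind their sites within closed chromatin, and ONECUT2 carries a cut domain and a homeodomain.

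The study asked what re-expression of the epithelial ETS factor EHF and of the intestinal homeobox factor CDX1, alone and together, does to the transcriptome of a poorly differentiated colorectal cancer line. HCT116-EV cells carried an empty pcDNA vector, HCT116-EHF cells carried an EHF plasmid, and both were made as geneticin-resistant clones. HCT116-CDX1 cells were transduced with a CDX1 retrovirus and sorted for its GFP marker. HCT116-EV and HCT116-EHF cells are not described as transduced or sorted. HCT116-EHF+CDX1 cells were geneticin-resistant clones obtained from HCT116-CDX1 cells after transfection with the EHF plasmid. All lines were grown in DMEM-F12 with serum, and 3 libraries of polyA RNA were sequenced per line, 12 in all. The study calls the libraries of its clustering biological replicates but gives a smaller number of them, and does not say what sets them apart, so the p-values measure only the spread between libraries, which may be technical. The lines are called EV, EHF, CDX1 and EHF+CDX1 cells from here on. Differences between clones, between selection and sorting, and between the factors themselves cannot be told apart in this design.

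Total counts ranged from 13523007 to 74186741 per library, so that 3 counts corresponded to between 0.0375 and 0.207 CPM (counts scaled to library size, after TMM normalization). EHF was expressed at 299 ± 54.4 CPM in EV, 19310 ± 305 in EHF, 12.3 ± 0.604 in CDX1 and 18710 ± 1433 CPM in EHF+CDX1 cells (SD, n = 3 each). CDX1 had at most 1 count in an EV library and at most 4 in an EHF library, and reached 525 ± 35.8 CPM in CDX1 and 5419 ± 277 CPM in EHF+CDX1 cells (SD, n = 3 each). EV replicate 3 stood apart, with a median absolute log2 difference of 0.539 and 0.532 from the other EV libraries, where other pairs within a line differed by 0.0665 to 0.199. TMM factors were 0.799 to 0.845 in CDX1 and 0.973 to 1.09 in the other lines. All 12 colorectal epithelial markers were tested and their summed level was 5651 to 6028 CPM in EV, 4915 to 5058 in EHF, 3331 to 3970 in CDX1 and 5295 to 5553 CPM in EHF+CDX1 libraries. Keratins made up much of these sums, with KRT8, KRT18 and KRT19 at means of 2181, 1022 and 1327 CPM in EV cells. In CDX1 cells they were at 1012, 565 and 439.5 CPM. CDH1 was also lower there, at 117 compared to 212.5 CPM in EV cells. EPCAM, CDX2 and LGALS4 had higher means in CDX1 cells, at 491, 39.9 and 0.979 CPM, compared to 265, 29.9 and 0.201 CPM in EV cells.

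HNF4A lies on chromosome 20 at 44355699 to 44434596 of GRCh38 on the plus strand, and it has a distal and a proximal promoter that start different isoforms. The sequences of both, and of the downstream promoter of NR5A2, are shown because HNF4A was the only member lower with each factor alone and not with both, and because the NR5A2 window held the most kinds of motif among those searched. Each run is the 250 bases before a transcription start in the RefSeq table on GRCh38.p14, read 5′ to 3′ on the plus strand, with motif matches in capitals.
HNF4A distal promoter, chr20:44355449-44355698: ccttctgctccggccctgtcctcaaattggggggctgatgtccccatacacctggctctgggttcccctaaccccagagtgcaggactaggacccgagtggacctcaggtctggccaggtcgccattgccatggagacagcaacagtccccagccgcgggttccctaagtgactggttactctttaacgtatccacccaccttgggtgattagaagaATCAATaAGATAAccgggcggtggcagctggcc
HNF4A proximal promoter, chr20:44400989-44401238: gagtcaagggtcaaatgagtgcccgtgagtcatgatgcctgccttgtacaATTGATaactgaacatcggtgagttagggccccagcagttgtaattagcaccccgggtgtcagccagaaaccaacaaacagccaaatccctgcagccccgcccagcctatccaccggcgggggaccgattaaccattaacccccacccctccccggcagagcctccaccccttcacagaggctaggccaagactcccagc
NR5A2 downstream promoter, chr1:200042341-200042590: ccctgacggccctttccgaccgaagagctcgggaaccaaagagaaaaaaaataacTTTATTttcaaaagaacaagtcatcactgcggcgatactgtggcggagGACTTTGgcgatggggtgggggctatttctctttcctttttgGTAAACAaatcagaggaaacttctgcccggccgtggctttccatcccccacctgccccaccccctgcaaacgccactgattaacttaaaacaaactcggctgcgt

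Core motifs were searched on both strands of these windows. The distal HNF4A window held the ONECUT core ATTGAT from 33 to 28 bases and the GATA core AGATAA from 26 to 21 bases before the start, separated by a single base. The proximal window held ATTGAT from 200 to 195 bases before the start. The NR5A2 window held the CDX core AATAAA at 195 to 190, the HNF4 core CAAAGTC at 147 to 141 and the FOXA core TGTTTNC at 105 to 99 bases before the start. Of 35116 promoter windows of the same length, 5.58% held ATTGAT, 9.17% AGATAA, 16.0% AATAAA, 2.91% CAAAGTC and 15.5% TGTTTNC. Neither HNF4A window held the EHF core GGAAGT, which 19.5% of windows held, or AATAAA. The windows of GATA6 and FOXA1 held a single match each, AATAAA at 30 to 25 bases in GATA6 and TGTTTNC at 235 to 229 bases in FOXA1, while those of FOXA3 and ONECUT2 held none. The upstream window of NR5A2 held AGATAA at 237 to 232 and at 220 to 215 bases before its start. Exons annotated in GENCODE covered 180, 99 and 116 of the 250 bases in the windows of GATA6, FOXA1 and FOXA3. They covered 96 bases of the upstream NR5A2 window. These windows are thus partly annotated as transcribed, unlike that of ONECUT2 and those printed above. The NR5A2 core AAGGTCA, which 3.44% of windows held, was in none of the windows searched. A match is a description of the letters and not evidence of binding, and FOXA2 and HNF4G were not searched.

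The members did not move as a block. In EHF compared to EV cells, 5 of the 8 were higher and 1 was lower at an adjusted p of 0.05 when edgeR tested for more than 1.5-fold, where 5.68% of all genes tested were higher and 2.65% lower. In CDX1 cells 4 were higher and 2 lower, beside 21.3% and 23.3% of all genes, so that changes of either sign were common in that line. In EHF+CDX1 cells 5 were higher and none lower than in EV cells, beside 7.3% and 3.13% of all genes. The higher members with EHF and with both include FOXA2, which had 0 counts in EV cells and could only be called higher. These 3 comparisons share the EV libraries. In the test against no change 6 members passed with EHF, 6 with CDX1 and 5 with both, beside 30.1%, 68.9% and 33.6% of all genes in either direction. The median log2 fold change of the 7 members other than FOXA2 was 1.29 with EHF, 1.16 with CDX1 and 1.51 with both, and over all genes tested it was -0.04, -0.03 and -0.03. GATA6, FOXA1 and HNF4G were higher in each of the 3 comparisons. Because these are bulk libraries, fewer cells that express a gene and less of its RNA per cell cannot be told apart.

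**Figure D1:**
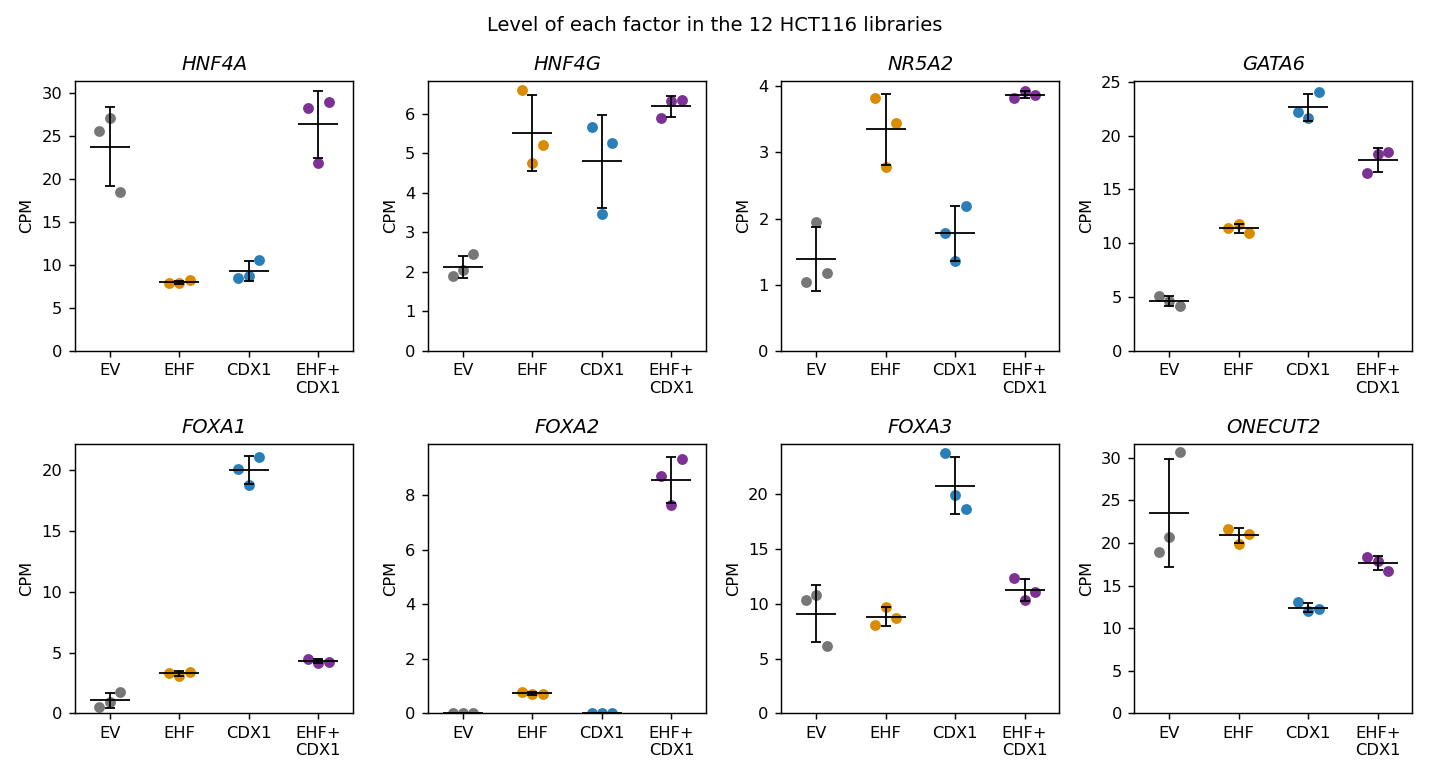
Level of each of the 8 factors in CPM (linear axes from 0) in the 3 libraries of each line, with a horizontal line at the mean and error bars of 1 SD. HNF4A was low in both single-factor lines, FOXA1 was highest in CDX1 cells at 18.8 to 21.1 CPM, and FOXA2 was highest in EHF+CDX1 cells at 7.65 to 9.33 CPM.

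HNF4A fell with each factor alone and overlapped the control with both. Its level was 25.6, 27.1 and 18.5 CPM in EV libraries 1, 2 and 3, and 7.87, 7.88 and 8.19 CPM in the EHF libraries. It was 8.50, 8.74 and 10.6 CPM in CDX1 and 28.2, 21.8 and 29.0 CPM in EHF+CDX1 libraries. The libraries of the single-factor lines lay below all others, and the EHF+CDX1 libraries overlapped the controls. HNF4A was 2.96-fold lower with EHF (log2 fold change -1.57, SE 0.17, edgeR adjusted p = 0.00034) and 2.55-fold lower with CDX1 (log2 fold change -1.35, SE 0.16, adjusted p = 0.00025). In EHF+CDX1 cells it differed from EV cells by a log2 fold change of 0.15 (SE 0.16, adjusted p = 1), and this value was -0.01 without EV replicate 3. It was 3.29-fold higher with both factors than with EHF alone (adjusted p = 0.00028) and 2.83-fold higher than with CDX1 alone (adjusted p = 9.6e-05). The log2 effect of EHF in cells with CDX1 thus exceeded that in cells without it by 3.07 (SE 0.23, adjusted p = 2.2e-06).

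HNF4G, the paralog of HNF4A, rose in all 3 lines. It lies on chromosome 8 at 75407649 to 75566834, and its level was 1.90, 2.04 and 2.44 CPM in EV libraries. It was 6.60, 4.75 and 5.21 CPM with EHF, 5.67, 3.46 and 5.27 CPM with CDX1 and 5.89, 6.34 and 6.36 CPM with both. Every library of the 3 lines lay above every EV library. HNF4G was 2.55-fold higher with EHF (log2 fold change 1.35, SE 0.21, adjusted p = 0.0082), 2.24-fold higher with CDX1 (adjusted p = 0.0066) and 2.88-fold higher with both (adjusted p = 0.0021). The differences from the single-factor lines to both were not called, with a log2 fold change of 0.18 (SE 0.20) from EHF to both and 0.36 (SE 0.20) from CDX1 to both (adjusted p = 1 and 0.88). The rise with EHF was not called in limma voom or on the deposited log2 RPKM values, which gave adjusted p up to 0.19. The interaction was -0.99 (SE 0.29, adjusted p = 0.08) and reached an adjusted p of 0.03 without EV replicate 3.

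Because HNF4A and HNF4G moved differently, their ratio differed between lines. The deposited RPKM values are corrected for exon length and were quantile-normalized by the authors, which can change a ratio within a library. On these values HNF4A was at 4.10 and HNF4G at 0.451 RPKM in EV cells, and at 1.28 and 1.03 RPKM in EHF cells. CDX1 cells had 1.91 RPKM of HNF4A and 1.18 of HNF4G, and EHF+CDX1 cells 4.53 and 1.14 RPKM. Within a library the ratio was 9.99, 9.71 and 7.46 in EV, 1.03, 1.41 and 1.34 in EHF, 1.26, 2.12 and 1.68 in CDX1 and 4.49, 3.20 and 4.27 in EHF+CDX1 cells. On this scale HNF4A was thus the more abundant transcript per length in every library, and close to equal with HNF4G in the EHF libraries. The ratio in EHF+CDX1 cells lay between that of the control and those of the single-factor lines, with no overlap on either side. An exact permutation test of 3 libraries against 3 cannot go below p = 0.1, so none was used for the ratio.

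**Figure D2:**
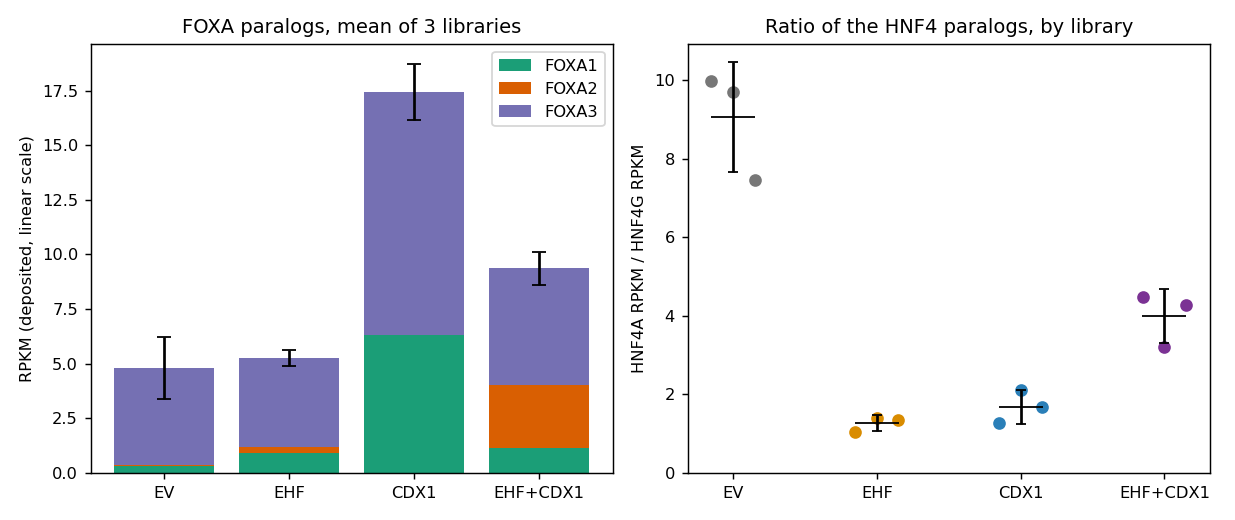
Left, stacked bars of the mean deposited RPKM (linear scale, from 0) of FOXA1, FOXA2 and FOXA3 over 3 libraries per line, with error bars of 1 SD of their sum. Right, the ratio of HNF4A RPKM to HNF4G RPKM in each library with the mean and SD, which was 9.06 in EV and 1.26 in EHF cells.

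NR5A2 (chromosome 1, 200027710 to 200177415) was higher in both lines that carried the EHF plasmid. Its level was 1.03, 1.94 and 1.18 CPM in EV and 3.83, 2.77 and 3.45 CPM in EHF libraries. It was 1.77, 1.36 and 2.19 CPM in CDX1 and 3.83, 3.93 and 3.87 CPM in EHF+CDX1 libraries. The libraries with EHF lay above all of those without it, and those of EV and CDX1 cells overlapped. NR5A2 was 2.84-fold higher with both factors than in EV cells (log2 fold change 1.51, SE 0.26, adjusted p = 0.0082) and 2.18-fold higher than with CDX1 alone (adjusted p = 0.02). Both calls were lost in limma voom and on the deposited log2 RPKM values, and the second also in DESeq2 and without CDX1 replicate 2. The 2.44-fold difference between EHF and EV cells passed narrowly (log2 fold change 1.29, SE 0.26, adjusted p = 0.034). It was lost in 10 of 15 alternatives, with an adjusted p of 0.0031 to 0.41 and 0.051 without EV replicate 3. CDX1 alone gave a log2 fold change of 0.38 (SE 0.26, adjusted p = 0.74), and the interaction was -0.16 (SE 0.36, adjusted p = 0.94).

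GATA6 rose with each factor, and most with CDX1. It lies on chromosome 18 at 22169589 to 22202528 and was at 5.08, 4.64 and 4.14 CPM in EV libraries. It was 11.4, 11.8 and 10.9 CPM with EHF, 22.2, 21.6 and 24.1 CPM with CDX1 and 16.5, 18.3 and 18.5 CPM with both. No libraries of different lines overlapped, so that the order was EV, EHF, EHF+CDX1 and CDX1. GATA6 was 2.48-fold higher with EHF (log2 fold change 1.31, SE 0.11, adjusted p = 0.00015), 4.92-fold higher with CDX1 (2.30, SE 0.11, adjusted p = 5e-08) and 3.86-fold higher with both (1.95, SE 0.11, adjusted p = 1.3e-06). From CDX1 to both it differed by a log2 fold change of -0.35 (SE 0.11), which was not called against 1.5-fold (adjusted p = 1) and had an adjusted p of 0.011 against no change. The log2 fold change from EHF to both was 0.64 (SE 0.11). This was also not called against 1.5-fold, and had an adjusted p of 0.0026 against no change. The interaction was -1.66 (SE 0.15, adjusted p = 3.5e-05).

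The endodermal paralogs of GATA6 were barely detected. GATA4 had at most 3 counts in any library. GATA5 had 27, 37 and 8 counts in the CDX1 libraries and at most 2 in any other. GATA6-AS1, the antisense transcript that shares 94 exon bases with GATA6, was at 0.129, 0.0947 and 0.312 CPM in EV and 2.04, 1.42 and 1.80 CPM in CDX1 libraries. It was higher with CDX1 (log2 fold change 3.07, SE 0.42, adjusted p = 0.00011) and, as for GATA6, had a negative interaction (-2.81, SE 0.57, adjusted p = 0.0029). With both factors its log2 fold change over EV cells was 1.67 (SE 0.44, adjusted p = 0.063). The strand setting of the counting is not given in the sources used here, and GENCODE places exons of 2 antisense genes over 8.45% and 2.47% of the exon bases of GATA6, so reads in these bases are uncertain.

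FOXA1 rose most of the members with CDX1 alone. It lies on chromosome 14 at 37589552 to 37595249 on the minus strand and was at 0.517, 0.947 and 1.76 CPM in EV libraries, from 12, 20 and 96 counts. It was 3.35, 3.09 and 3.42 CPM with EHF, 20.1, 18.8 and 21.1 CPM with CDX1 and 4.51, 4.18 and 4.22 CPM with both. No libraries of different lines overlapped, and EV replicate 3 was the highest of its line. FOXA1 was 17.1-fold higher with CDX1 than in EV cells (log2 fold change 4.10, SE 0.29, adjusted p = 4.2e-07). It was 4.63-fold lower with both factors than with CDX1 alone (log2 fold change -2.21, SE 0.26, adjusted p = 6.4e-05). Compared to EV cells it was 2.82-fold higher with EHF (adjusted p = 0.018) and 3.70-fold higher with both (adjusted p = 0.0024). Without EV replicate 3 these log2 fold changes rose from 1.5 to 2.18, from 4.10 to 4.78 and from 1.89 to 2.57. Without EV replicate 2 or EHF replicate 3, and with only the groups compared, the difference with EHF was not called, with adjusted p up to 0.18, and with only the groups compared the difference with both had an adjusted p of 0.061. The interaction of -3.71 (SE 0.38, adjusted p = 2e-05) was the most negative among the members.

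FOXA2 was detected only in the lines that carried the EHF plasmid. It lies on chromosome 20 at 22580998 to 22585490, on the minus strand, and had 0 counts in each of the 3 EV and 3 CDX1 libraries. At these depths a count of 0 allows up to 0.0551 to 0.142 CPM in EV and 0.0657 to 0.0772 CPM in CDX1 libraries, for counting error only. The EHF libraries held 15, 33 and 58 counts, or 0.798, 0.693 and 0.725 CPM. The EHF+CDX1 libraries held 498, 403 and 135 counts, or 8.70, 7.65 and 9.33 CPM. FOXA2 was therefore at least 6.79-fold higher with EHF than in EV cells, and with both factors at least 78.7-fold above EV and 117-fold above CDX1 cells, taking 3 counts in each library with none. Because FOXA2 entered the test only through the lines in which it was detected, its calls against EV and CDX1 cells carry no more than these bounds. From EHF to both it was 11.6-fold higher (log2 fold change 3.54, SE 0.22, adjusted p = 6.6e-05). The effect of EHF with and without CDX1 could not be compared, because both lines without the plasmid were at 0.

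LINC00261, a long noncoding RNA beside FOXA2, had 36, 14 and 10 counts in the EHF+CDX1 libraries, at most 1 in EHF and 0 in the others. It did not pass the filter on low counts and was not tested. Around FOXA1, TTC6, which shares 16 exon bases with it on the opposite strand, had 0 counts in EV libraries and was at 0.460, 0.556 and 0.798 CPM with CDX1. MIPOL1, a further neighbour of FOXA1, was at 5.27 ± 0.115 CPM in EV and 6.66 ± 0.409 CPM in CDX1 cells (SD, n = 3 each), and this difference was not called (adjusted p = 1). HNF4A-AS1 had at most 8 counts in any library.

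FOXA3 (chromosome 19, 45864326 to 45873797) was higher in CDX1 cells. Its level was 10.3, 10.8 and 6.12 CPM in EV and 8.09, 9.75 and 8.67 CPM in EHF libraries. It was 23.8, 19.98 and 18.7 CPM in CDX1 and 12.4, 10.4 and 11.1 CPM in EHF+CDX1 libraries. The CDX1 libraries lay above all others, while EV libraries overlapped those of the EHF and EHF+CDX1 lines. FOXA3 was 2.31-fold higher with CDX1 than in EV cells (log2 fold change 1.21, SE 0.20, adjusted p = 0.0028). EHF alone gave a log2 fold change of -0.02 (SE 0.20) and both factors 0.33 (SE 0.20), with an adjusted p of 1 for each. From CDX1 to both it differed by -0.88 (SE 0.19, adjusted p = 0.053), a value that passed the threshold in 5 of 15 alternatives. The interaction was -0.86 (SE 0.27, adjusted p = 0.13).

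The makeup of the FOXA family differed between lines on the deposited RPKM scale. FOXA3 made up 91.7% ± 5.35 of the summed FOXA RPKM in EV and 77.5% ± 2.35 in EHF cells (SD, n = 3 each). In CDX1 cells FOXA3 held 63.6% ± 2.79 and FOXA1 36.3% ± 2.78 of a sum of 17.4 ± 1.28 RPKM, compared to a sum of 4.81 ± 1.42 RPKM in EV cells (SD, n = 3 each). In EHF+CDX1 cells FOXA3 held 56.9% ± 1.80, FOXA2 30.8% ± 2.11 and FOXA1 12.3% ± 0.526 of 9.36 ± 0.764 RPKM (SD, n = 3 each). FOXA2 thus took a larger share than FOXA1 in each library of that line and a smaller one in each library of the 3 other lines. In these shares the 0 counts of FOXA2 appear as small values above 0, because the authors' log2 values include an offset, and the highest FOXA2 share in EV and CDX1 libraries was 0.363%.

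ONECUT2 (chromosome 18, 57435374 to 57491298) was lower with CDX1. Its level was 18.9, 20.7 and 30.7 CPM in EV and 21.7, 19.9 and 21.1 CPM in EHF libraries. It was 13.0, 12 and 12.3 CPM in CDX1 and 18.4, 17.9 and 16.7 CPM in EHF+CDX1 libraries. The CDX1 libraries lay below all others. ONECUT2 was 1.90-fold lower with CDX1 than in EV cells (log2 fold change -0.92, SE 0.16, adjusted p = 0.016). Without EV replicate 3, its highest library, the value was -0.68 with an adjusted p of 0.11, and the call was also lost in limma voom, DESeq2 and on the deposited log2 RPKM values. EHF alone gave a log2 fold change of -0.18 (SE 0.15, adjusted p = 1) and both factors -0.41 (SE 0.15, adjusted p = 1). From CDX1 to both it differed by 0.51 (SE 0.16), which was not called (adjusted p = 0.64).

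The other ONECUT genes also had their lowest level with CDX1. ONECUT1 was at 2.54, 2.60 and 1.21 CPM in EV libraries and at 0.109, 0.0253 and 0.180 CPM in CDX1 libraries, from 5, 1 and 7 counts. Its log2 fold change with CDX1 was -4.27 (SE 0.51, adjusted p = 3e-05), and from CDX1 to both it was 3.03 (SE 0.53, adjusted p = 0.00084). ONECUT3 was at 27.5 ± 3.75 CPM in EV and 8.28 ± 0.569 CPM in CDX1 cells (SD, n = 3 each; log2 fold change -1.73, adjusted p = 1.7e-06), and rose by 1.21 from CDX1 to both (adjusted p = 0.00014).

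**Figure D3:**
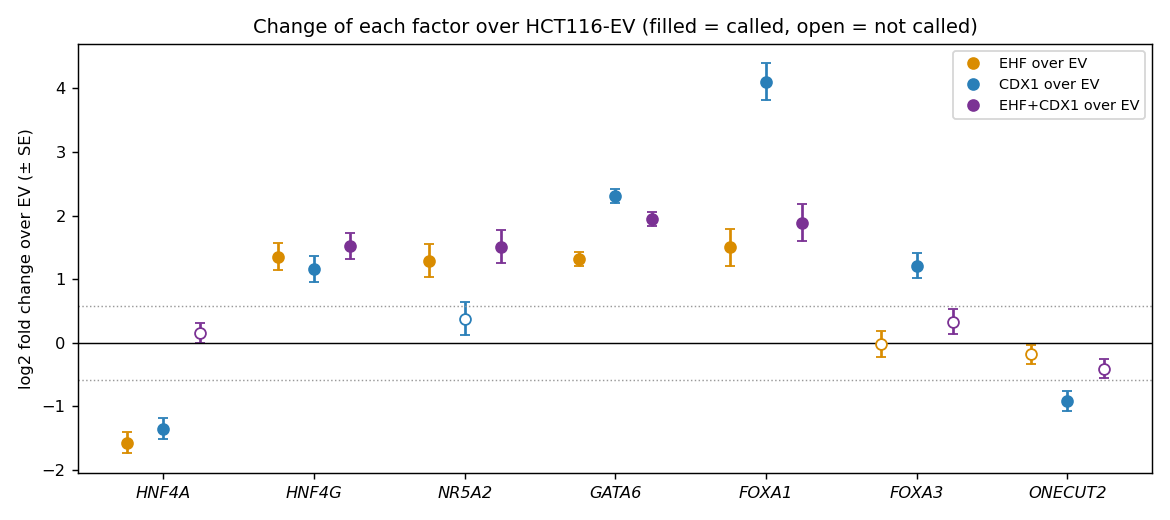
Log2 fold change over EV cells (± SE of the edgeR fit) for the 7 members other than FOXA2, in the line with EHF, with CDX1 and with both, where filled points were called against a 1.5-fold change (dotted lines) and open points were not. HNF4A is negative in the single-factor lines and near 0 with both, and FOXA1 reaches 4.10 with CDX1.

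The line with both factors was also compared to each single-factor line. These comparisons do not isolate the second factor, since CDX1 itself was 10.3-fold higher in EHF+CDX1 than in CDX1 cells. From EHF to EHF+CDX1 cells 2 of the 8 members were higher, FOXA2 and HNF4A, and none was lower, beside 2.49% and 0.189% of all genes. From CDX1 to EHF+CDX1 cells 3 were higher, FOXA2 (from 0 counts), HNF4A and NR5A2, and FOXA1 was lower, beside 22.3% and 18.7% of all genes, so calls were common in that comparison. In the test against no change 3 members passed in the comparison with EHF alone and 7 in that with CDX1 alone, where 9.78% and 67.2% of all genes passed. The median log2 fold change of the 7 members other than FOXA2 was 0.35 and 0.36 in these comparisons, and over all genes 0 and 0.04.

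The interaction tests whether the log2 effect of EHF differed between cells with and without CDX1. Of the 7 members for which it could be estimated, HNF4A had a higher value and GATA6 and FOXA1 lower values, beside 20.2% and 18% of all genes tested. For HNF4A the single-factor changes sum to -2.92 on the log2 scale, and 0.15 was measured with both. For GATA6 the sum is 3.61 and the measured change 1.95, and for FOXA1 5.60 and 1.89. The remaining interactions were -0.99 for HNF4G, -0.86 for FOXA3, -0.16 for NR5A2 and 0.69 for ONECUT2, with adjusted p of 0.08, 0.13, 0.94 and 0.26. Against no change 6 members passed, beside 58.5% of all genes. The lines compared also differ in the level of both factors, since EHF rose from 299 CPM without CDX1 and from 12.3 CPM with it, and CDX1 itself was 10.3-fold higher in EHF+CDX1 than in CDX1 cells. The part of these levels in the interaction was not tested.

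**Figure D4:**
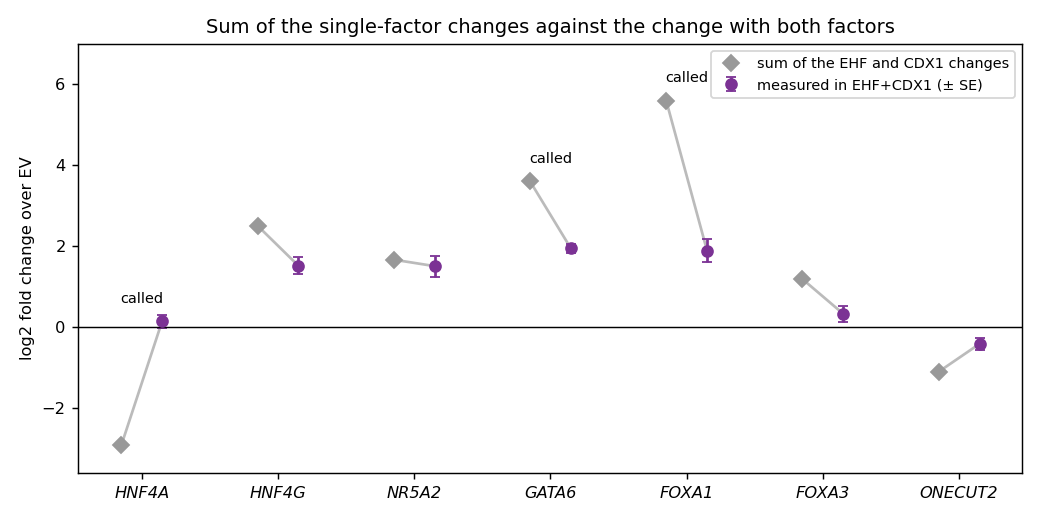
For the 7 members other than FOXA2, the sum of the log2 fold changes of the EHF and CDX1 lines over EV cells (diamonds) beside the log2 fold change measured with both factors (circles, ± SE). Members whose interaction was called are marked, and the gap runs upwards for HNF4A and downwards for GATA6 and FOXA1.

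The counts for the following gene lists stand beside 7.3% higher and 3.13% lower of all genes with both factors and 21.3% and 23.3% with CDX1 alone. A gene that reached the filter on low counts through a single line had to be high there, so the counts describe the genes tested and not the lists as a whole. Among 32 related endoderm factors, of which 26 were tested and 3 passed the filter only through the line with both factors, 8 were higher and 1 lower with both than in EV cells. With CDX1 alone 9 of the 26 were higher and 4 lower. The ONECUT genes on this list are described with ONECUT2, and ONECUT3 was named after its values were seen.

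**Figure D5:**
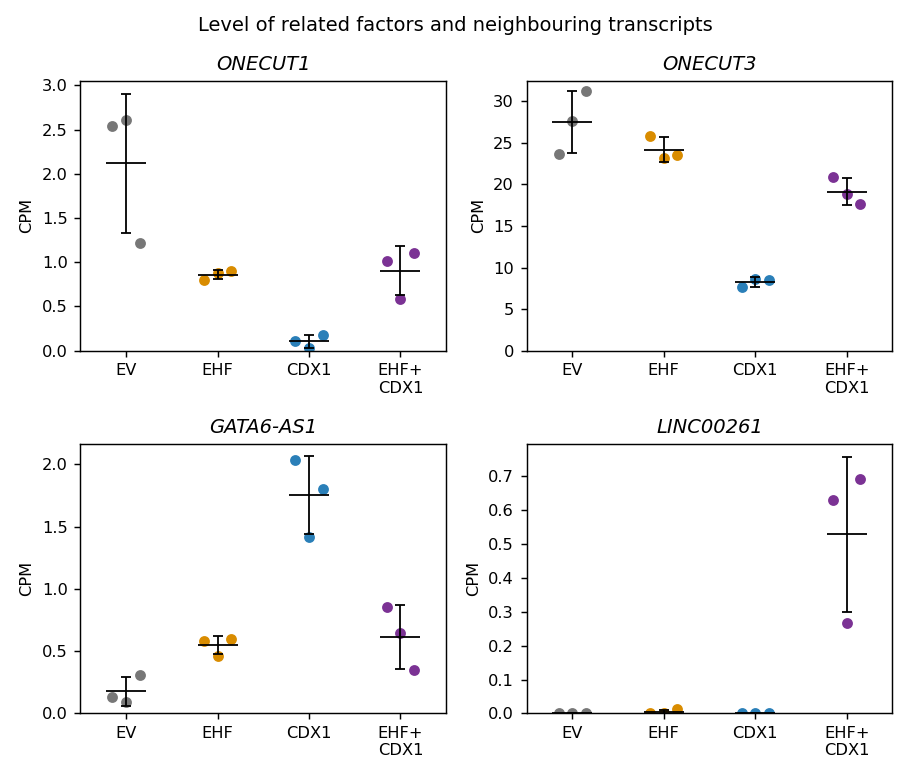
Level in CPM (linear axes from 0) of ONECUT1, ONECUT3, GATA6-AS1 and LINC00261 in the 3 libraries of each line, with the mean and error bars of 1 SD. LINC00261 is highest with both factors, and ONECUT1 and ONECUT3 are lowest with CDX1 alone.

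By the rule fixed for the lists, the related factors with the largest changes with both factors were ISX, PROX1 and FOXJ1. All of them passed the filter on low counts only through that line, so each had to be high there to be tested. ISX, an intestinal homeobox factor, had 0 counts in EV libraries and was at 3.59 ± 0.155 CPM with both (SD, n = 3), at least 33.0-fold higher. PROX1 had 0, 0 and 2 counts in EV and 110, 76 and 8 counts in EHF+CDX1 libraries. FOXJ1, a factor of ciliated cells, rose from 0.430 ± 0.0437 to 7.40 ± 0.648 CPM (SD, n = 3 each; log2 fold change 4.12, adjusted p = 1.8e-05). With CDX1 alone the list was led by ONECUT1, FOXD1 at 110 ± 16.1 CPM and FOXQ1 at 1.99 ± 0.805 CPM, compared to 13.1 ± 1.82 and 0.321 ± 0.171 CPM in EV cells (SD, n = 3 each).

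The HNF4 target list, of lipoprotein, liver and enterocyte genes, had 36 genes with a row and only 13 tested. Of these, 2 passed the filter only through the line with both factors, CDH17 and PCK1, and had to be high there. With both factors 8 of the 13 were higher and 1 lower than in EV cells, beside 7.3% and 3.13% of all genes. With EHF 2 were higher and 1 lower, beside 5.68% and 2.65%, and with CDX1 4 were higher and none lower, beside 21.3% and 23.3%. CDH17, an intestinal cadherin, rose from 0.173 ± 0.112 to 31.8 ± 1.53 CPM with both (SD, n = 3 each; log2 fold change 7.38, adjusted p = 4.4e-08). LGALS4, a galectin of the gut epithelium, rose from 0.201 ± 0.186 to 35.5 ± 0.885 CPM (SD, n = 3 each; log2 fold change 7.18, adjusted p = 7.3e-07). PCK1, a gluconeogenic enzyme, had 0, 0 and 1 counts in EV, 3, 6 and 11 in CDX1 and 68, 121 and 16 in EHF+CDX1 libraries. ANPEP, a brush border peptidase, was instead highest with CDX1 alone at 3.20 ± 0.590 CPM, compared to 0.605 ± 0.144 CPM with both (SD, n = 3 each; log2 fold change -2.41, adjusted p = 8e-04). CYP27A1, a sterol hydroxylase, was at 0.630 ± 0.387 CPM in EV and 3.06 ± 0.676 CPM in CDX1 cells (SD, n = 3 each). The 10 hepatocyte markers, of which 2 were tested, summed to 1.25 to 4.96 CPM in EV and 5.60 to 8.28 CPM in EHF+CDX1 libraries. AFP and FGB were at 0 in the latter. SERPINA1, which is also on this target list, was alone at 1.51 ± 0.857 CPM in EV and 5.83 ± 1.4 CPM with both (SD, n = 3 each). The sum is thus not separate from the list, and the part of these markers in the list was not tested.

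Of 12 FOXA target genes tested of 23 listed, 3 passed the filter only through the line with both factors and 1 only through the EHF line. With both factors 5 of the 12 were higher and none lower, and with CDX1 alone 2 were higher and 3 lower, close to the shares of all genes in that line. The called genes with the largest changes with both were AGR2, TFF3 and CFTR, which serve mucus production and chloride secretion. These are the 3 that passed the filter only through that line, so they had to be high there. They are among the 5 called higher. AGR2 had 2, 0 and 0 counts in EV and 508, 455 and 107 in EHF+CDX1 libraries. TFF3 had 0 counts in EV libraries and was at 0.644 ± 0.0904 CPM with both (SD, n = 3), at least 5.92-fold higher. CFTR had 0, 0 and 2 counts in EV and 278, 243 and 63 in EHF+CDX1 libraries. In CDX1 cells AGR2 and CFTR had at most 2 counts in a library and TFF3 none. ISL1, CREB3L1 and NKX2-2 led this list with CDX1 alone, with log2 fold changes of 3.44, -2.60 and -1.96 (adjusted p = 3.5e-06, 0.0025 and 0.0022), and NKX2-2 was at 14.3 CPM in EV replicate 3 and at 5.77 and 4.83 CPM in the others.

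Of 12 GATA target genes tested of 17 listed, 3 passed the filter only through the line with both factors. VIL1 and LGR5 are among these 3 and had to be high there. With both factors 3 of the 12 were higher and 2 lower, and with CDX1 alone 1 was higher and 2 were lower, below the shares of all genes in that line. VIL1, a brush border protein, had at most 6 counts in an EV library and was at 50.5 ± 2.73 CPM with both (SD, n = 3; adjusted p = 1.5e-07). LGR5, a stem cell receptor, had 1, 0 and 1 counts in EV, 13, 11 and 10 in CDX1 and 336, 252 and 85 in EHF+CDX1 libraries. BMP4, a secreted growth factor, fell from 782 ± 66.8 CPM in EV to 69.8 ± 5.16 with CDX1 and 81.7 ± 5.40 CPM with both (SD, n = 3 each; log2 fold changes -3.49 and -3.26, adjusted p = 1.1e-09 and 4.8e-09). SLC9A3, a sodium-proton exchanger, fell with CDX1 from 14.6 ± 3.59 to 6.09 ± 1.12 CPM (SD, n = 3 each; adjusted p = 0.0013).

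Only 8 of 20 NR5A2 target genes were tested. CYP11A1 passed the filter on low counts only through the CDX1 line, so it had to be high there. With both factors 1 was higher and none lower. With CDX1 2 were higher, CYP11A1 among them, and 1 was lower, near or below the shares of all genes in that line. SLC51A, a bile acid transporter subunit, rose with both from 0.465 ± 0.0731 to 1.47 ± 0.149 CPM (SD, n = 3 each; log2 fold change 1.63, adjusted p = 0.015), and it was at 1.30 ± 0.0265 CPM with EHF and 0.494 ± 0.227 CPM with CDX1 (SD, n = 3 each). CYP11A1, a steroid-forming enzyme, reached 3.77 ± 0.937 CPM with CDX1, compared to at most 4 counts in an EV library (SD, n = 3; adjusted p = 3.1e-05). CEL, a bile salt-dependent lipase, rose with CDX1 from 2.62 ± 0.636 to 5.56 ± 0.553 CPM (SD, n = 3 each; adjusted p = 0.0096). POU5F1 fell with CDX1 by 2.13 on the log2 scale (adjusted p = 0.019), although its libraries overlapped, and it is uncertain because it has close copies elsewhere in the genome.

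Among cofactors, 15 of 18 were tested, with 2 higher and none lower with both factors and 6 higher and 1 lower with CDX1, beside 21.3% and 23.3% of all genes. Of the 15, 1 passed the filter on low counts only through the line with both factors, PROX1, and had to be high there. TLE1, a corepressor that binds FOXA proteins, rose from 15.3 ± 1.65 to 120 ± 15.8 CPM with CDX1 and 40.5 ± 2.32 CPM with both (SD, n = 3 each; adjusted p = 9.8e-09 and 6e-05). The histone acetyltransferase CREBBP rose with CDX1 from 139.9 ± 18.6 to 366 ± 33.9 CPM, and ZFPM2, a GATA cofactor, from 0.779 ± 0.119 to 1.77 ± 0.638 CPM (SD, n = 3 each; adjusted p = 1.6e-05 and 0.037). Of 23 intestinal nuclear receptors, 18 were tested, with 3 higher and 1 lower with both and 6 higher and 3 lower with CDX1, beside the same shares of all genes. Of the 18, 1 passed the filter only through EV cells, 1 only through CDX1 cells and 1, NR1I2, only through the line with both factors. Each of these had to be high in that line. The xenobiotic receptor NR1I2 had 0, 0 and 1 counts in EV and 63, 34 and 7 in EHF+CDX1 libraries. THRB and VDR, receptors of thyroid hormone and vitamin D, rose with both by log2 fold changes of 1.53 and 1.29 (adjusted p = 0.0011 and 4.8e-05). With CDX1 the glucocorticoid receptor NR3C1 rose from 18.7 ± 0.311 to 94.7 ± 23.4 CPM (SD, n = 3 each; adjusted p = 4.6e-07) and THRB by a log2 fold change of 1.78 (adjusted p = 4.7e-05).

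Across the 12 libraries, the gene with the most similar log2 CPM pattern among the 12447 tested genes whose mean log2 CPM reached 1 was WNK2 for HNF4A (Pearson r = 0.981), followed by SLC25A13 (0.965). These correlations describe 12 points in 4 lines and share the lines' differences. FOXA1 was followed most closely by KDM6A and RTN4 (0.993 each), GATA6 by RNF6 (0.985) and SAV1 (0.979), and FOXA3 by WBP11 (0.991) and TOMM34 (0.989). FOXA2 was closest to IFIT1 (0.989) and USP18 (0.978), HNF4G to CEMIP2 (0.978) and RBM47 (0.965), NR5A2 to MDM2 (0.95) and MON1A (0.947), and ONECUT2 to PRRT4 (0.984) and MXRA8 (0.982). Between members, r was 0.88 for GATA6 and FOXA1, 0.87 for NR5A2 and FOXA2, 0.82 for HNF4G and NR5A2, and -0.95 for FOXA3 and ONECUT2.

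Markers of other tissues had lower sums than the epithelial list and differed between lines. Of the 10 mesenchymal markers only 3 passed the filter on low counts and were tested, so their sum rests on few genes. It was 38.6 to 80.9 CPM in EV, 47.2 to 52.7 in EHF, 176 to 229 in CDX1 and 41.9 to 42.2 CPM in EHF+CDX1 libraries. COL1A2, DCN, LUM, PDGFRA, FAP and THY1 were at 0 in EV cells. The 7 haematopoietic markers, of which 3 were tested, summed to 2.56 to 11.9, 38.1 to 40.7, 90.4 to 99.4 and 35.7 to 42.7 CPM in the same order of lines. The 9 gastric markers, of which 3 were tested, summed to 0.646 to 1.58, 2.02 to 2.29, 2.30 to 3.90 and 2.81 to 4.08 CPM. The 7 pancreatic markers, of which 2 were tested, summed to 8.82 to 12.7 CPM in EV and 26.2 to 30.2 CPM in EHF libraries. Their sums were 30.0 to 38.23 CPM in CDX1 and 20.5 to 23.6 CPM in EHF+CDX1 libraries. PTF1A, INS and GCG were at 0 in EV and CDX1 cells. NKX6-1 alone had a mean of 7.89 CPM in EV and 30.9 CPM in CDX1 cells, where PDX1 had 3.03 and 1.81 CPM. FOXA1 and GATA6 were highest in the line with the highest mesenchymal and haematopoietic sums, and the part of these in their levels was not tested.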

How the data were processed

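Polyadenylated RNA of 4 HCT116 lines was sequenced with 3 libraries per line. The authors aligned reads to GRCh38 with Subread, kept uniquely mapped reads, and deposited raw counts per gene over RefSeq exons from featureCounts 2.0.0 (version from the submitters' processing notes). The authors also deposited log2 RPKM values, made with limma voom, quantile normalization and exon length, and these served here for levels per length. The library kit marks strand per the study's methods, but the strand setting of the counting is not given in the sources used here. Every column of values was used. Of the rows, 550 had no symbol.

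The filter was 0.5 CPM in 3 or more libraries. It removed genes holding 0.0585% of the counts, and the other 15853 genes were fitted in edgeR 4.0.16 (R 4.3.3) with TMM factors and the quasi-likelihood method. Calls used glmTreat with a limit of 1.5-fold and a threshold of 0.05 on p-values adjusted by Benjamini-Hochberg over the whole table, and all adjusted p-values given are from this test unless stated. SEs were obtained by dividing the absolute log2 fold change by the square root of the F statistic. Folds against lines with 0 counts were taken against 3 counts in each library. Alternatives were limma 3.58.1, DESeq2 1.42.0, RLE factors, no filter, the test against no change, only the groups compared, a replicate block, thinned counts, the deposited log2 RPKM values and each library left out. The tests were run on simulated counts with the same spread for every gene and no outlying library. They were therefore not checked for a library like EV replicate 3.

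The members and lists were chosen with earlier results of these data known. The text names all members, from each list the 3 called genes that changed most with both factors and with CDX1 (1 of these is not reported here), listed neighbours with a row, and the 2 genes most correlated with each member. Of the 8 members, 6 had a promoter window that was searched, 8 windows in all. Positions and promoter sequences came from RefSeq tables on GRCh38.p14, and exon overlaps from GENCODE.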

Additional observations from a re-analysis of the deposited data

Results flagged for a closer look

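The effect of EHF differed between cells with and without CDX1 for 3 members in the edgeR test of the difference itself. On the log2 scale the difference was 3.07 for HNF4A (SE 0.23, adjusted p = 2.2e-06), which was lower with EHF in cells without CDX1 and higher with EHF in cells with CDX1. It was -1.66 for GATA6 (SE 0.15, adjusted p = 3.5e-05) and -3.71 for FOXA1 (SE 0.38, adjusted p = 2e-05), which were higher with EHF in cells without CDX1. In cells with CDX1, FOXA1 was lower with EHF, and the change of GATA6 was not called. The share of all genes tested with a called interaction was 20.2% higher and 18% lower. EHF started from 299 CPM without CDX1 and from 12.3 CPM with CDX1, and CDX1 was 10.3-fold higher in the line with both factors. The part of these differences was not tested.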

How the results depend on the processing

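Over all alternatives the members called numbered 4 to 6 (EHF against EV), 5 to 6 (CDX1 against EV), 4 to 5 (both against EV), 2 to 3 (both against EHF), 3 to 7 (both against CDX1) and 3 to 6 (interaction), and leaving out 1 library gave 4 to 6, 5 to 6, 5, 2, 3 to 5 and 3 to 4. In the test against no change, 7 members passed for both against CDX1 and 6 for the interaction, where 67.2% and 58.5% of all genes passed. Of the single-member values 676 kept their direction and their side of the threshold, 26 lost a call and 14 gained one. Another 9 changed sign without being called in either fit, and 0 called values reversed. Without EV replicate 3 the members called against EV numbered 5, 5 and 5.

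The replicate block called 5, 6, 5, 2, 5 and 3 members in the 6 comparisons. Libraries of different lines with the same replicate number had correlated deviations of -0.0653 to 0.0802 in 18 pairs, and those with different numbers of -0.106 to 0.0897 in 36 pairs, and 4 of 12 libraries correlated best with one of their own number, so the number was not taken as a pairing. Leaving out a library changed the calls of NR5A2, FOXA1, ONECUT2, FOXA3 and HNF4G. Depth limits genes with few or no counts, such as FOXA2 and LINC00261, since 3 counts stand for 0.0375 to 0.207 CPM.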
